A study of Mus musculus with 9 samples.

Results

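The mRNAs of 10 genes that encode RNA-binding proteins were followed through a CELF2 RNA immunoprecipitation: the ELAVL family (*Elavl1*, *Elavl2*, *Elavl3* and *Elavl4*), the PTBP family (*Ptbp1*, *Ptbp2* and *Ptbp3*) and the FMRP family (*Fmr1*, *Fxr1* and *Fxr2*). Every RefSeq transcript that the count table holds for these genes was taken, which gave 67 of 107384 transcripts, and these were summed to 10 of 21254 protein-coding genes. The ELAVL genes held 38 of the transcripts, the PTBP genes 16 and the FMRP genes 13, and 4 of the 67 had 0 counts in every library. All 10 genes passed the filter on low counts and were among the 15267 genes tested.

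In RIP-seq, an antibody isolates a protein from lysate and the co-purified RNA is sequenced. The cytoplasmic fraction came from cortices of mice at postnatal day 0 that were heterozygous for the *Celf2* knock-in allele p.R493H, and every library, the controls included, carried this genotype, with no wild-type library for comparison. The 3 groups were 3 CELF2 RIPs made with 10 µg of rabbit anti-CELF2 for 3 hours, 3 IgG RIPs made with normal rabbit IgG in the same amount and time, and 3 inputs taken from the lysate ahead of the precipitation. The labels call the replicates of a group biological, and the sources used here do not say how many pups each one held.

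ELAVL (Hu) proteins bind AU- and U-rich stretches of pre-mRNAs and of 3′ untranslated regions, where they affect splicing, stability and translation. *Elavl1* (HuR) is made in most cells, and *Elavl2* (HuB), *Elavl3* (HuC) and *Elavl4* (HuD) are mostly neuronal. PTBP proteins bind pyrimidine-rich tracts and mostly repress exons, with *Ptbp1* typical of progenitors and *Ptbp2* of newborn neurons, and FMRP and its autosomal relatives FXR1 and FXR2 associate with polyribosomes and RNA granules and regulate translation of neuronal mRNAs. CELF2, the precipitated protein, binds U- and G-rich RNA and acts in splicing in the nucleus and on mRNA stability and translation in the cytoplasm.

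Library totals were 15919600 to 20052716 estimated counts in CELF2 RIP, 17365561 to 28773130 in IgG RIP and 69125700 to 105116427 in input, so that values in input rest on the most reads. The 45S rRNA precursor held 34.9%, 32.9% and 10.8% of the counts in IgG RIP replicates 1, 2 and 3 and at most 1.76% elsewhere, and was not among the tested genes. Levels are given as CPM, the usual depth-normalised count, over the protein-coding counts of a library after scaling by the trimmed mean of M values (TMM). A gene was called higher or lower when it changed by 2-fold or more at a false discovery rate (FDR) under 0.01. *Celf2* mRNA itself had 470, 797 and 647 CPM in CELF2 RIP, 267, 231 and 199.8 CPM in IgG RIP, and 304, 278 and 305 CPM in input.

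Of the 10 mRNAs, 4 were called higher in CELF2 RIP than in IgG RIP (*Elavl1*, *Elavl3*, *Elavl4* and *Ptbp3*) and 0 lower. Among all tested genes, 13.4% were called higher and 13.6% lower in that comparison. Over input, *Elavl1* and *Ptbp3* were called higher and 0 were lower, against 14.6% and 15.5% of all genes. The same 2 mRNAs were the members called higher than both controls, against 7.58% of all genes, and 0 members were lower than both, against 9.54%. Both comparisons use the same CELF2 RIP libraries and are not independent of each other.

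Without the 2-fold limit, 8 of the 10 mRNAs were higher over IgG RIP at this FDR (22.9% of all genes) and 0 lower (19.2%), and 4 were higher over input (26.8%) and 0 lower (20.1%). The median log2 fold change of the 10 was 0.92 over IgG RIP, where that of all tested genes was -0.056, and 0.48 over input, where that of all tested genes was 0.19. The libraries did not overlap between CELF2 RIP and IgG RIP for 8 members, all higher (30.0% of all genes higher, 27.4% lower), and between CELF2 RIP and input for 6, all higher (42.1% and 31.8%). In 6 of the 10, every CELF2 RIP library lay above all 6 control libraries, a separation that 25.2% of all genes showed, and in 0 every one lay below them (19.9%). *Fxr1* and *Fxr2* were the 2 members with estimates below 0 over IgG RIP.

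**Figure D1:**
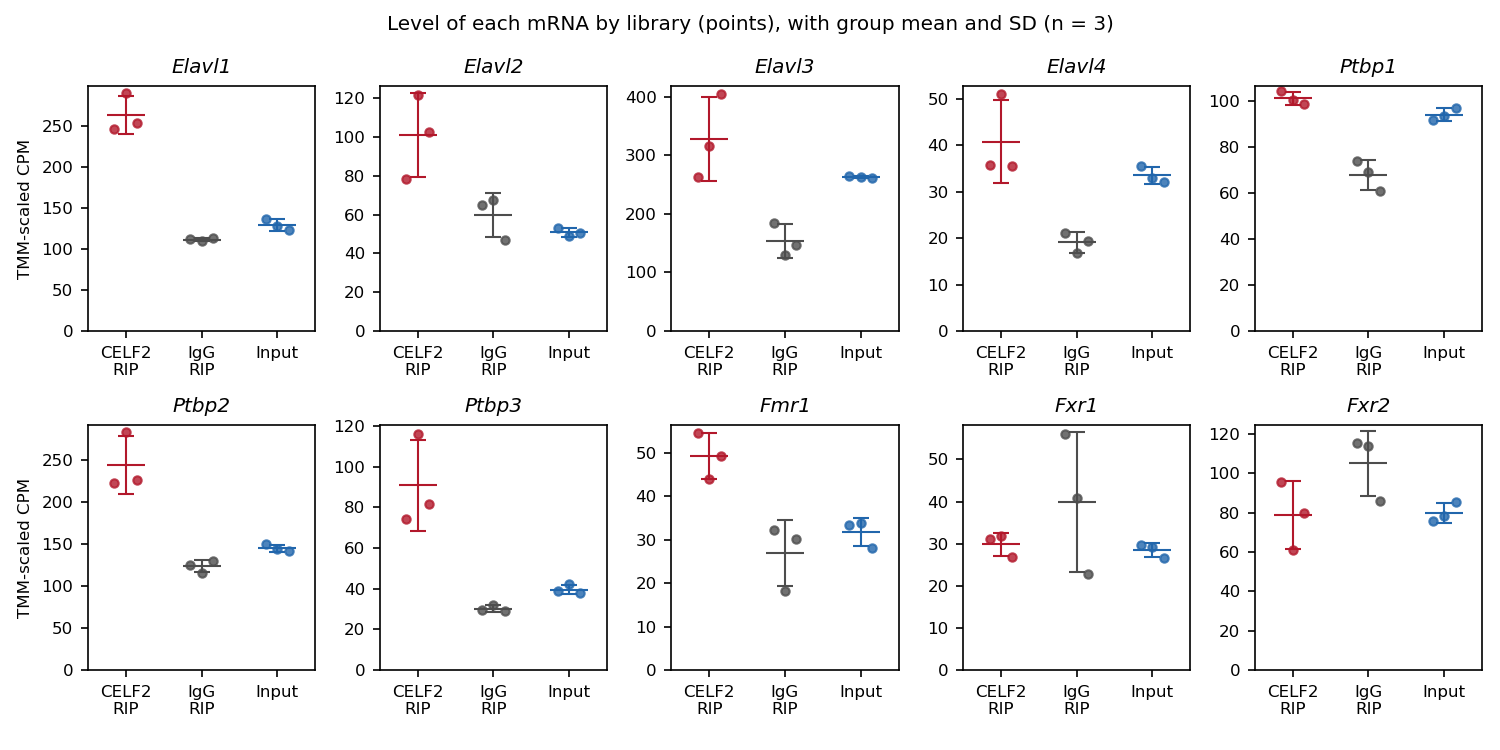
TMM-scaled CPM (linear axes from 0, one panel per mRNA) in the 3 libraries of each group, shown as points, with the group mean and SD. The CELF2 RIP points of *Elavl1* lie between 246 and 289 CPM and those of *Ptbp3* between 74.5 and 116 CPM, above all control points, while those of *Fxr1* and *Fxr2* overlap both controls.

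Within the ELAVL family, *Elavl1*, which encodes the broadly expressed HuR (chr8:4284781-4325140, mm10), had 246, 289 and 254 CPM in CELF2 RIP, 112, 109 and 113 CPM in IgG RIP, and 137, 128 and 123 CPM in input. The CELF2 RIP libraries stood clear of both controls, and the IgG RIP libraries lay just below the inputs. The log2 fold change was 1.24 ± 0.10 (SE, n = 3 per group) over IgG RIP, or 2.36-fold (edgeR's quasi-likelihood test, FDR 1.15e-05), and 1.03 ± 0.10 over input, or 2.04-fold (FDR 2.02e-05). The change over input is close to the 2-fold limit. It was 0.95 without CELF2 RIP replicate 2, 0.91 without input replicate 2 and 0.99 without input replicate 3, where the call was lost at FDRs of 5.99e-05 to 0.000394. With other scalings of the libraries this call was lost too. The change over input was 0.56 with total counts, 0.89 with DESeq2 size factors, 0.79 with the upper quartile and 0.63 with TMM over coding and noncoding genes. The call over IgG RIP was lost with total counts (0.87) and the upper quartile (0.97).

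*Elavl2* (chr4:91211533-91400108), the gene of the neuronal HuB, had 78.5, 122 and 102 CPM in CELF2 RIP, 64.8, 67.6 and 46.7 CPM in IgG RIP, and 53.4, 48.9 and 50.4 CPM in input. All CELF2 RIP libraries were again the highest, with replicate 1 nearest to the controls. The changes were 0.76 ± 0.18 over IgG RIP (edgeR, FDR 0.00513) and 0.99 ± 0.18 over input (FDR 0.000914), both past the FDR and under 2-fold. The change over input reached 1.14 without CELF2 RIP replicate 1 and 1.02 without input replicate 1, where it was called.

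*Elavl3* (chr9:22015005-22052146), which encodes HuC, had 262, 315 and 405 CPM in CELF2 RIP, 185, 129 and 146 CPM in IgG RIP, and 264, 263 and 261 CPM in input. CELF2 RIP was above IgG RIP in every library, but its lowest library lay within the inputs, which hardly varied. Over IgG RIP the change was 1.09 ± 0.17 (edgeR, FDR 0.000402), over input it was 0.32 ± 0.17 (FDR 0.130), and IgG RIP against input gave -0.77 ± 0.17 (FDR 0.00583). The call over IgG RIP was lost without CELF2 RIP replicate 3 (0.91), IgG RIP replicate 2 (0.99) or input replicate 2 (0.99). It was also lost with total counts (0.72), the upper quartile (0.83) and TMM over coding and noncoding genes (0.87). The same held when only curated (0.87) or only version-matched transcripts (0.89) were summed.

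*Elavl4* (chr4:110203737-110351939), the gene of HuD, had 35.7, 51.0 and 35.4 CPM in CELF2 RIP, 21.2, 16.8 and 19.3 CPM in IgG RIP, and 35.6, 32.9 and 32.1 CPM in input. The order of the groups was that of *Elavl3*, with a single CELF2 RIP library well above the inputs. The change over IgG RIP was 1.09 ± 0.17 (edgeR, FDR 0.000396), that over input 0.28 ± 0.17 (FDR 0.170), and IgG RIP was lower than input at -0.81 ± 0.17 (FDR 0.00451). Without CELF2 RIP replicate 2 the change over IgG RIP was 0.89 and without input replicate 2 it was 0.99, and neither was called. This call was also lost with total counts (0.71), the upper quartile (0.83) and TMM over coding and noncoding genes (0.86). With no filter on low counts the change was 0.9993, just under the limit.

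Among the PTBP mRNAs, *Ptbp3* (chr4:59471868-59549378), which encodes the paralog also known as ROD1, had 74.5, 116 and 81.7 CPM in CELF2 RIP, 29.5, 32.2 and 29.0 CPM in IgG RIP, and 38.7, 42.2 and 37.7 CPM in input. No control library came near the lowest CELF2 RIP library. Its changes of 1.59 ± 0.17 over IgG RIP, or 3.01-fold (edgeR, FDR 3.49e-05), and 1.20 ± 0.16 over input, or 2.30-fold (FDR 0.000140), were the largest of the 10 in both comparisons. Without CELF2 RIP replicate 2, its highest library, the change over input was 0.98 and was not called. With curated transcripts only, *Ptbp3* lost both calls (2.79 over IgG RIP, FDR 0.0164, and 1.05 over input, FDR 0.257), and with version-matched transcripts it lost the call over input (1.07, FDR 0.0453).

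*Ptbp2* (chr3:119718741-119784647), the paralog that rises as neurons leave the cell cycle, had 222, 283 and 225 CPM in CELF2 RIP, 125, 115 and 129.9 CPM in IgG RIP, and 149.6, 144 and 142 CPM in input. The 3 groups did not overlap, with CELF2 RIP the highest and IgG RIP the lowest. The changes were 0.98 ± 0.12 over IgG RIP (edgeR, FDR 7.10e-05) and 0.75 ± 0.12 over input (FDR 0.000313). The first passed 2-fold, and was called, without CELF2 RIP replicate 1 (1.04), CELF2 RIP replicate 3 (1.03) or IgG RIP replicate 3 (1.01).

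*Ptbp1* (chr10:79854432-79864435), the paralog of progenitors, had 104, 100.4 and 98.4 CPM in CELF2 RIP, 73.7, 69.1 and 60.8 CPM in IgG RIP, and 91.5, 93.4 and 96.9 CPM in input. CELF2 RIP was above every input library by a narrow margin, and IgG RIP was below both. The change was 0.57 ± 0.11 over IgG RIP (edgeR, FDR 0.00103), 0.10 ± 0.10 over input (FDR 0.406) and -0.47 ± 0.10 for IgG RIP against input (FDR 0.00605). The annotated span of *Ptbp1* overlaps that of *Plppr3*, and the strand setting of the counting is not given in the sources used here.

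In the FMRP family, *Fmr1* (chrX:68678536-68717963), which encodes FMRP, had 54.5, 44.0 and 49.2 CPM in CELF2 RIP, 32.2, 18.1 and 30.2 CPM in IgG RIP, and 33.3, 33.8 and 28.0 CPM in input. The CELF2 RIP libraries lay above all controls, and IgG RIP replicate 2 was the lowest library. The changes were 0.87 ± 0.21 over IgG RIP (edgeR, FDR 0.00472) and 0.63 ± 0.20 over input (FDR 0.0198). Without IgG RIP replicate 1 the change over IgG RIP was 1.01 and was called. When only transcripts with curated (NM) accessions were summed, the change over IgG RIP was -0.81 and that over input -0.064. The curated NM_008031.3 had 0, 81 and 0 counts in CELF2 RIP against 131, 63 and 0 in IgG RIP.

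*Fxr1* (chr3:34020058-34069980), an autosomal FMRP paralog, had 31.1, 31.7 and 26.8 CPM in CELF2 RIP, 55.9, 40.9 and 22.8 CPM in IgG RIP, and 29.6, 29.2 and 26.6 CPM in input. CELF2 RIP and input overlapped, and the IgG RIP libraries spread on both sides of them. The changes of -0.42 ± 0.26 over IgG RIP (edgeR, FDR 0.205) and 0.070 ± 0.26 over input (FDR 0.834) did not pass the test. The *Fxr1* span overlaps that of *Dnajc19*.

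*Fxr2* (chr11:69632971-69653297), the other autosomal paralog, had 95.8, 61.2 and 79.9 CPM in CELF2 RIP, 115, 114 and 86.1 CPM in IgG RIP, and 76.0, 78.1 and 85.6 CPM in input. The CELF2 RIP libraries spread around the inputs and overlapped IgG RIP. The changes of -0.41 ± 0.17 over IgG RIP (edgeR, FDR 0.0663) and -0.017 ± 0.17 over input (FDR 0.938) did not pass the test.

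**Figure D2:**
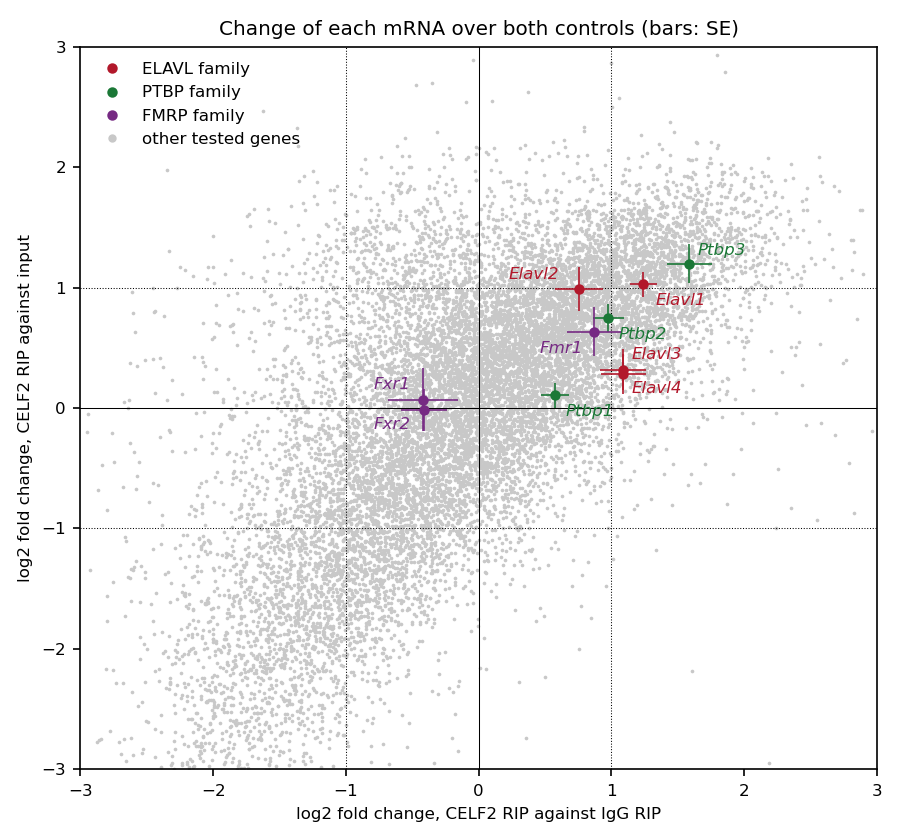
Log2 fold change of CELF2 RIP against IgG RIP (horizontal axis) and against input (vertical axis) for the 10 mRNAs, coloured by family with their SE, and for the other tested genes in grey. Dotted lines mark 2-fold, 429 genes lie beyond the axes, and *Elavl1* and *Ptbp3* are the members past the upper limit on both axes.

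IgG RIP also differed from input for some members, which bears on the size of the changes over IgG RIP. None of the 10 was called in that comparison, where 6.79% of all genes were higher and 5.0% lower. The libraries did not overlap for *Fxr2*, which was higher in IgG RIP (27.1% of all genes), and for 6 members that were lower (29.4%). At an FDR under 0.01 without the 2-fold limit, *Elavl3*, *Elavl4* and *Ptbp1* were lower in IgG RIP than in input (11.3% of all genes), and at an unadjusted p under 0.05 the number of members was 5. With the replicate number as a block in the edgeR model, 0 of the 10 passed this FDR, while the counts called in CELF2 RIP stayed at 4 over IgG RIP and 2 over input.

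The size of each change depends on how libraries are scaled. Against IgG RIP, the median of all tested genes moved from -0.056 with TMM to -0.42 with total counts, -0.12 with DESeq2 size factors, -0.32 with the upper quartile and -0.27 with TMM over coding and noncoding genes. Against input the same medians were 0.19, -0.27, 0.054, -0.045 and -0.20. Of the genes called in the comparison with IgG RIP, 49.8% were higher with TMM, and 21.5%, 44.6%, 28.7% and 32.4% with the other scalings in that order.

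A scaling factor moves all genes together, so the distance of a member from the median of all genes is nearly fixed by construction and is given as its position, not as a sign of stability. *Ptbp3* was 1.63 to 1.64 above it over IgG RIP and 0.99 to 1.01 over input across the 5 scalings, and *Elavl1* was 1.29 to 1.30 and 0.83 above it. *Elavl2* was 0.80 to 0.81 and 0.78 to 0.80 above the median. *Elavl3* and *Elavl4* were 1.13 to 1.15 above it over IgG RIP but 0.075 to 0.12 over input, where their sign against 0 turned under total counts (-0.15 and -0.19) and under TMM over coding and noncoding genes (-0.076 and -0.12). *Fxr1* and *Fxr2* were 0.34 to 0.37 below it over IgG RIP. The number of members called higher than both controls was 2 with TMM, 1 with DESeq2 size factors and 0 with the other scalings.

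**Figure D3:**
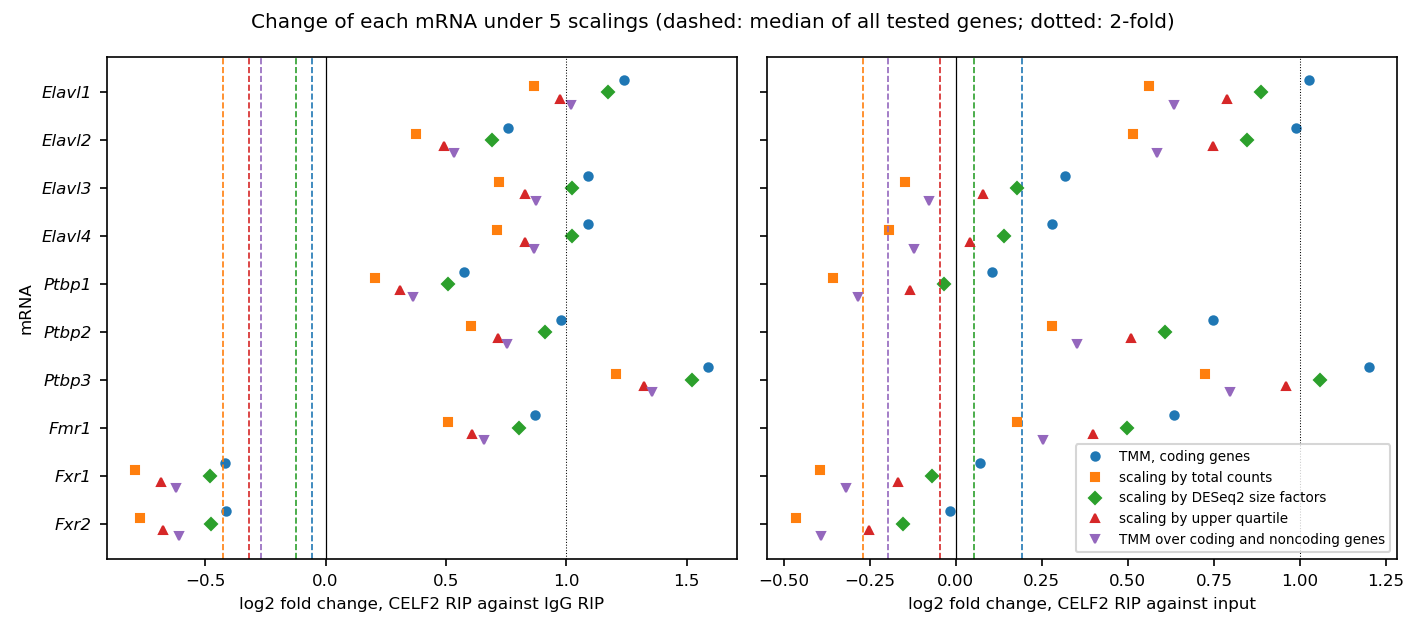
Log2 fold change of each mRNA against IgG RIP (left) and input (right) under 5 scalings of the libraries, with the median of all tested genes under each scaling as a dashed line of the same colour and 2-fold as a dotted line. The members shift together with the medians, and *Ptbp3* alone stays past 2-fold over IgG RIP under all 5.

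Ratios of paralogs within a library do not depend on the scaling. Counts of 2 members of a family were divided within each library for 12 pairs, and in 4 pairs the CELF2 RIP libraries lay outside all 6 controls. The share for gene pairs in general was not computed. Among single genes, 25.2% lay above and 19.9% below all 6 controls. The 4 pairs share *Ptbp3* or *Fmr1* and are not independent of each other. Two-sided exact permutation tests of 3 against 3 libraries cannot go below 0.10. All 4 pairs reached this p in both comparisons, and adjusted over the 12 pairs it was 0.3 against IgG RIP and 0.133 against input, so that no pair passed an adjusted threshold.

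The log2 ratio of *Ptbp1* to *Ptbp3* was 0.48, -0.21 and 0.27 in the 3 CELF2 RIP libraries, 1.32, 1.10 and 1.07 in those of IgG RIP, and 1.24, 1.15 and 1.36 in those of input. The ratio was thus shifted towards *Ptbp3* in every CELF2 RIP library, by -0.98 on average against IgG RIP and -1.07 against input. *Ptbp2* to *Ptbp3* moved the same way by -0.59 and -0.43. *Ptbp1* to *Ptbp2* differed by -0.63 from input without overlap (exact p = 0.1), and overlapped IgG RIP.

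*Fmr1* to *Fxr1* was 0.81, 0.47 and 0.88 in the CELF2 RIP libraries, -0.80, -1.17 and 0.41 in those of IgG RIP, and 0.17, 0.21 and 0.077 in the inputs. *Fmr1* to *Fxr2* was -0.81, -0.48 and -0.70 in the CELF2 RIP libraries, -1.84, -2.65 and -1.51 in those of IgG RIP, and -1.19, -1.21 and -1.61 in the inputs. Both ratios leaned towards *Fmr1* in every CELF2 RIP library, by 1.24 and 1.34 against IgG RIP and by 0.57 and 0.67 against input. With curated transcripts only, the differences from input were -0.90 and -0.42, the opposite direction.

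In the ELAVL family no pair separated CELF2 RIP from both controls. The ratios of *Elavl1* to *Elavl3* and to *Elavl4* were 0.73 and 0.76 higher than in input without overlap (exact p = 0.1 each), and those of *Elavl2* to the same 2 genes were 0.67 and 0.71 higher. These 4 ratios overlapped those of IgG RIP. *Elavl3* to *Elavl4* was 3.00 ± 0.46 (SD, n = 3) in CELF2 RIP. It was 3.00 ± 0.11 in IgG RIP, with the inputs at 2.97 ± 0.068. *Elavl1* to *Elavl2* was 1.40 ± 0.22, 0.92 ± 0.31 and 1.34 ± 0.056 in the groups in that order.

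**Figure D4:**
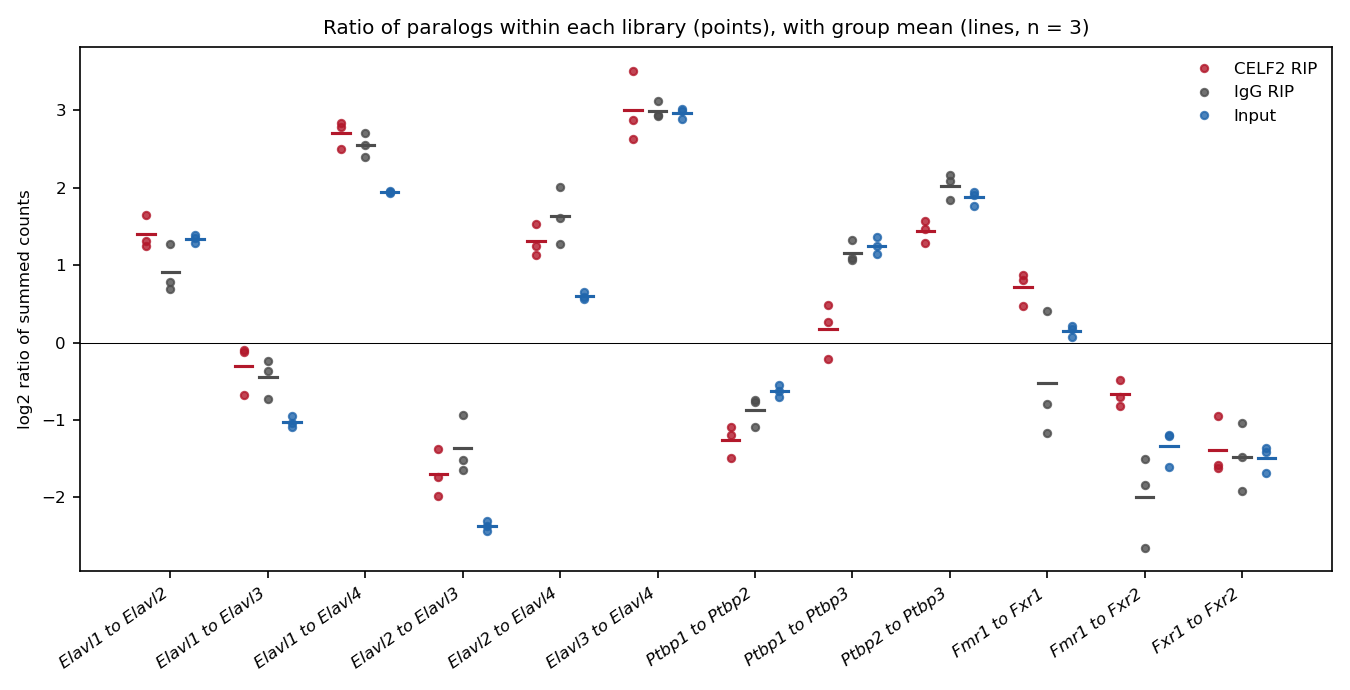
Log2 ratio of the summed counts of 2 paralogs within each library for the 12 pairs, with points for the 3 libraries of each group and a line for the mean. The CELF2 RIP points of *Ptbp1* to *Ptbp3* (-0.21 to 0.48) lie below all control points (1.07 to 1.36), and those of *Fmr1* to *Fxr1* (0.47 to 0.88) above them (-1.17 to 0.41).

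The same mRNAs were read transcript by transcript, where the estimates of near-identical isoforms share reads and vary far more. The common biological coefficient of variation was 0.995 over transcripts and 0.221 over genes. Of the 67 transcripts, 50 passed the filter on low counts, and 0 were called higher (0.496% of all tested transcripts) or lower (2.21%) in CELF2 RIP than in both controls. With edgeR's test of a transcript against the rest of its gene, 0 of 49 passed an FDR under 0.01, where 0.717% of all transcripts did over IgG RIP and 0.502% over input, and 2 were at an unadjusted p under 0.05 in each comparison. In simulated data this test found 3 of 77 transcripts raised 32-fold in CELF2 RIP, and the transcript-level test found 0 of 100 raised 4-fold and 31 of 100 raised 8-fold, so that a count of 0 says little here. The shares that the transcripts took of their gene's summed count are therefore described by library, for the main ones of the 35 that held at least 10% in a group or were called.

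Over IgG RIP, 2 *Elavl2* transcripts were called higher (3.19% of all tested transcripts) and 0 lower (3.15%), and over input 0 transcripts of any member were called higher (0.940%) or lower (4.51%). XM_006502781.3 had 33, 30 and 39 counts in CELF2 RIP, 0 in all 3 IgG RIPs, and 119, 224 and 93 in input. XM_017319990.1 had 16, 26 and 20 counts in CELF2 RIP, 0 in all 3 IgG RIPs, and 59, 149 and 79 in input. Set against an assumed floor of 3 counts in each IgG RIP library, these were 10.3-fold and 6.12-fold higher. This floor does not cover how reads are divided between isoforms, so the folds are not lower limits. *Elavl2* transcript NM_001177883.1 had 604, 286 and 3 counts in the IgG RIPs. The calls were lost with the replicate number as a block in edgeR (FDR 0.0478 and 0.0599), and when single libraries were left out, in 6 of 9 fits for the first and 8 of 9 for the second. Neither was above input, with 2.39 ± 0.53 and 2.33 ± 0.59 CPM for the first and 1.43 ± 0.24 and 1.53 ± 0.42 CPM for the second in CELF2 RIP and input.

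*Elavl1* was read mostly from its curated transcript NM_010485.3, which held 89.1%, 91.0% and 88.9% of the gene's counts in CELF2 RIP and 88.5%, 90.0% and 89.1% in input. In IgG RIP it held 80.0%, 93.7% and 100%. The predicted transcript XM_006508698.3 held the rest. The composition of *Elavl1* thus overlapped between CELF2 RIP and input.

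*Elavl3* had 3 transcripts, of which XM_006510022.1 held the most in every library, 53.9% to 58.0% in CELF2 RIP and 49.6% to 57.1% in input, and NM_010487.2 the next most. XM_006510021.1 had 1, 696 and 514 counts in CELF2 RIP, 407, 0 and 15 in the IgG RIPs, and 2024, 3606 and 2424 in the inputs. It was thus near 0 in 1 CELF2 RIP and 2 IgG RIP libraries and well covered in every input. For *Elavl4*, with 9 of 15 transcripts past the filter, the shares moved widely even between inputs: NM_010488.4 held 10.0%, 13.5% and 38.7% there and NM_001163399.1 30.9%, 31.2% and 13.4%.

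*Elavl2*, with 11 of 18 transcripts past the filter, was on average led in CELF2 RIP and input by NM_001177883.1, at 31.7%, 46.3% and 53.0% and at 37.6%, 38.1% and 57.2%. In IgG RIP replicate 3 this transcript had 0.461% and XM_006502789.2 had 75.4%. XM_011240448.2 had 53, 127 and 130 counts in CELF2 RIP, 94, 136 and 70 in the IgG RIPs, and 14, 5 and 0 in the deeper inputs. Its share was 5.40% to 11.3% in CELF2 RIP, 9.07% to 19.9% in IgG RIP and at most 0.417% in input. Both RIP groups are set against the same inputs here, and neither comparison passed the threshold (edgeR, FDR 0.0283 for CELF2 RIP and 0.0326 for IgG RIP against input).

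*Ptbp3* was led by NM_178164.3 in CELF2 RIP, with 396, 936 and 605 counts, and in input, with 1121, 2907 and 1688, while IgG RIP had 0, 99 and 166. Its share was 42.5%, 62.1% and 66.0% in CELF2 RIP, 46.1%, 76.0% and 72.3% in input, and 0%, 30.4% and 41.1% in IgG RIP. XM_006537852.3 had the reverse pattern, with 49.5% to 57.0% in IgG RIP, 10.2% to 32.4% in CELF2 RIP and 6.27% to 33.7% in input. These shares in CELF2 RIP overlapped input and not IgG RIP, a separation whose frequency over all transcripts was not computed. The transcript test did not separate them (adjusted p = 0.952 for NM_178164.3 against the rest of its gene over IgG RIP, edgeR).

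*Ptbp2* was split between NM_019550.2, at 47.3%, 35.5% and 40.6% in CELF2 RIP and 40.0% to 40.8% in input, and NM_001310711.1, at 47.1%, 57.2% and 51.8% and at 55.3% in each input. *Ptbp1* was mostly NM_008956.3, at 62.4% to 74.5% in CELF2 RIP and 72.2% or more in input, with NM_001077363.2 at 23.0% to 36.5% and 15.9% to 27.3%. In IgG RIP replicates 1 and 2, NM_001077363.2 held 4.92% and 6.17% of *Ptbp1* and NM_019550.2 held 18.4% and 31.4% of *Ptbp2*. In IgG RIP replicate 3 the values were 44.8% and 67.6%, so the IgG RIP libraries differed among themselves more than CELF2 RIP differed from input.

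*Fmr1* was on average led by XR_001782738.1, a predicted transcript without a coding sequence, at 22.3%, 45.8% and 32.7% in CELF2 RIP, 43.5%, 61.2% and 36.6% in the IgG RIPs, and 32.8%, 25.8% and 29.5% in the inputs. Its curated transcript NM_008031.3 had 0, 81 and 0 counts in CELF2 RIP and 204, 228 and 247 in input. *Fxr2* had a single transcript, NM_011814.2, so its share was fixed.

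For *Fxr1*, 2 transcripts had other shares in input than in both kinds of RIP. XM_006535401.1 had 439, 1002 and 400 counts in input, 10, 0 and 0 in CELF2 RIP, and 48, 0 and 0 in IgG RIP, which made 23.6%, 37.8% and 24.4% of the gene in input and at most 5.37% in any RIP. NM_001113188.1 had 6.55%, 2.04% and 7.86% in input, 23.9%, 25.2% and 33.3% in CELF2 RIP, and 39.1%, 30.8% and 14.8% in IgG RIP. Neither group of RIP libraries overlapped input for these 2 transcripts. The share of all transcripts with such a separation was not computed. Among genes, CELF2 RIP lay above input without overlap for 42.1% and below it for 31.8%, and IgG RIP for 27.1% and 29.4%. Neither transcript passed the test against the rest of its gene over input (edgeR, adjusted p = 0.290 and 0.932). Whether these shifts are of the RNA or of the division of reads between isoforms was not tested.

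**Figure D5:**
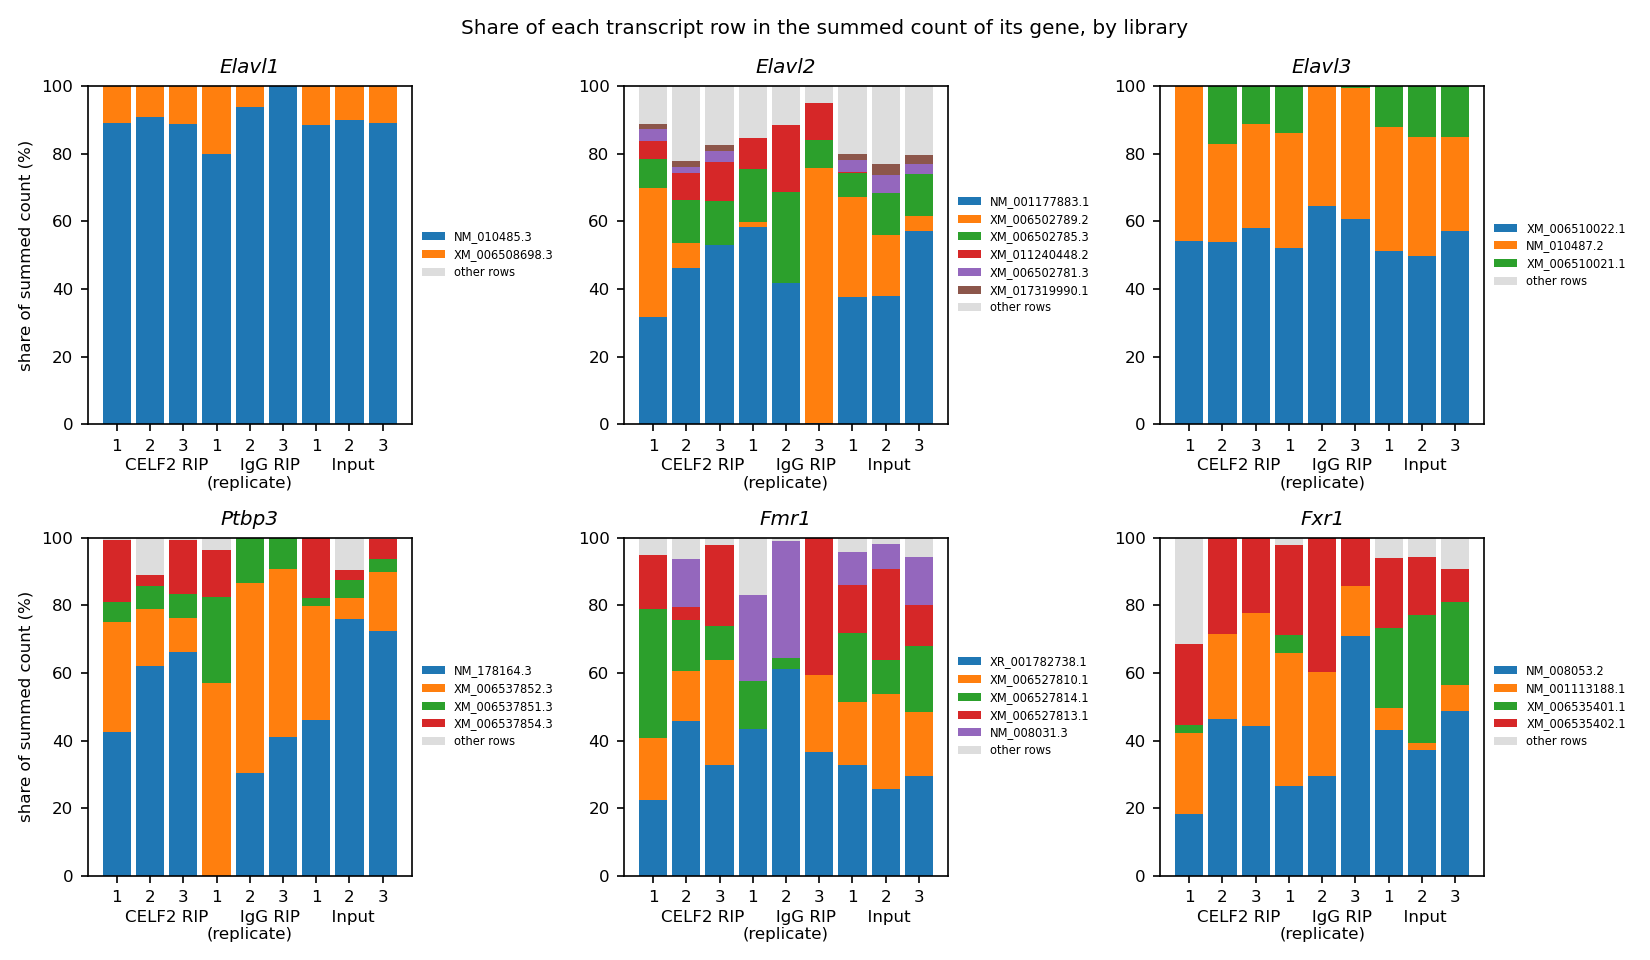
Share (%) of the main transcripts in the summed count of *Elavl1*, *Elavl2*, *Elavl3*, *Ptbp3*, *Fmr1* and *Fxr1* in each of the 9 libraries, with the other transcripts in grey. *Elavl1* is nearly the same in CELF2 RIP and input, and XM_006535401.1 of *Fxr1*, at 23.6% to 37.8% in input, is at most 5.37% in the RIP libraries.

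Other genes that act with these families were read from lists. Over IgG RIP, 13.4% of all tested genes were called higher and 13.6% lower, and over input 14.6% and 15.5%. Of 7 AU-rich element binding proteins other than ELAVL, 1 was called higher in CELF2 RIP than in IgG RIP and 0 lower, and 0 were called over input. The median of the list was 0.46 over IgG RIP and 0.40 over input, beside -0.056 and 0.19 for all tested genes. The gene called was *Hnrnpd*, which encodes AUF1, at 164 ± 33.1 CPM in CELF2 RIP and 80.3 ± 8.80 CPM in IgG RIP (log2 fold change 1.03 ± 0.15, edgeR, FDR 0.000251). It was not called without CELF2 RIP replicate 2 (0.85), IgG RIP replicate 2 (0.95) or input replicate 2 (0.93), nor with total counts (0.65), DESeq2 size factors (0.96), the upper quartile (0.77) or TMM over coding and noncoding genes (0.80).

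Of 11 PTBP co-regulators and other pyrimidine- or CA-binding splicing proteins, 0 were called higher and 1 lower in CELF2 RIP than in each control. Of all tested genes, 7.58% were called higher and 9.54% lower than both. The list medians were 0.072 over IgG RIP and -0.39 over input. *Pcbp4*, a poly(C)-binding protein, was the gene called, at 66.5 ± 13.9 CPM in CELF2 RIP, with IgG RIP at 138 ± 7.61 CPM and input at 169 ± 5.49 CPM (log2 fold change -1.06 ± 0.14 over IgG RIP, edgeR, FDR 0.000163). Without CELF2 RIP replicate 2 the change over IgG RIP was -0.92 and was not called. The direction was opposite to that of *Ptbp2* and *Ptbp3*.

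Of 16 FMRP partners and granule proteins, CELF2 RIP was higher than IgG RIP for 5 and lower for 2 genes (13.4% and 13.6% of all genes). It differed from both controls for 4 higher and 1 lower genes (7.58% and 9.54%). The list medians were 0.015 over IgG RIP and -0.20 over input. *Purb*, a single-stranded nucleic acid binding protein of RNA granules, had 280 ± 55.0 CPM in CELF2 RIP and 80.0 ± 6.02 CPM in IgG RIP (log2 fold change 1.80 ± 0.16, edgeR, FDR 1.43e-05), and *G3bp1*, a stress granule protein, rose by 1.22 ± 0.14 (FDR 4.66e-05). *G3bp1* was not called over input (0.99). Its call over IgG RIP was lost with total counts (0.84), the upper quartile (0.95) and TMM over coding and noncoding genes (0.99). *Stau1*, a double-stranded RNA binding protein of transport granules, fell by 1.09 (FDR 3.62e-05) on the log2 scale. *Top3b*, a topoisomerase that acts on RNA, gave -1.72 ± 0.19 (FDR 4.63e-05), but 4.27 with curated transcripts only and 4.29 with version-matched transcripts, neither of which passed the FDR.

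Of 9 mRNAs known from textbooks as ELAVL cargo, 4 were called over IgG RIP, all higher (13.4% of all genes higher, 13.6% lower). Over input 4 were higher and 1 lower (14.6% and 15.5%), and 3 were higher over both (7.58%). The medians were 0.58 and 0.69. *Ccnd1*, the gene of cyclin D1, was 1.87 ± 0.30 higher over IgG RIP (edgeR, FDR 0.000433). It was among the 3 called over both, but its call over input (1.06, FDR 0.00898) was lost in 7 of 9 fits without a single library and with each of the 4 other scalings, at 0.58 to 0.92. *Cdkn1a*, the gene of the cell cycle inhibitor p21, was 1.74 ± 0.17 higher over IgG RIP (edgeR, FDR 2.42e-05) and was not called over input (0.69). Of 7 mRNAs known as FMRP cargo, CELF2 RIP was called lower than IgG RIP for 2 (13.6% of all genes). These were also lower than input, where 9.54% of all genes were lower than both controls. The medians of the list were -0.17 over IgG RIP and 0.12 over input. *Dlg4*, the gene of PSD-95, gave -1.37 ± 0.11 over IgG RIP (edgeR, FDR 1.15e-05). *Arc*, the gene of an activity-regulated synaptic protein, gave -1.02 ± 0.26 (FDR 0.00738), which was 0.0104 with the replicate number as a block and was not called in 6 of 9 fits without a single library, where its FDR was 0.0132 to 0.0280.

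Markers of cell types were read beside these results, because the lysate holds many kinds of cell. The inputs were taken from the lysate ahead of the precipitation, so these values compare fractions of RNA and do not count cells. All markers of excitatory and inhibitory neurons were detected. Of all tested genes, 13.4% were called higher and 13.6% lower over IgG RIP. Of 5 excitatory markers, 2 were called higher over IgG RIP and 0 lower, and the summed level was 1122 to 1408 CPM in CELF2 RIP, against 553 to 692 in IgG RIP and 645 to 788 in input. Of 4 inhibitory markers, 2 were called higher and 0 lower, with 409 to 578, 215 to 270.1 and 267 to 285 CPM. These neuronal markers moved in the direction of *Elavl2*, *Elavl3*, *Elavl4* and *Ptbp2*, and their part in those results was not tested.

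For the markers that follow, the shares of all genes were 13.4% higher and 13.6% lower over IgG RIP, and 14.6% and 15.5% over input. Of 6 radial glia markers, 3 were called lower over IgG RIP (*Hes1*, *Nes* and *Vim*) and 0 higher. Their summed level was 125 to 169 CPM in CELF2 RIP, against 303 to 348 in IgG RIP and 367 to 385 in input. The markers not called over IgG RIP were *Sox2* (-0.70), *Hes5* (-0.094) and *Pax6* (0.16). *Vim* had 27.2 CPM in CELF2 RIP, 121 in IgG RIP and 176 in input, and so weighed most on the sum. *Ptbp1*, typical of progenitors, was not lower in CELF2 RIP. All 4 erythroid markers were called lower than in IgG RIP, and 3 lower than in input, where *Alas2* gave -0.47 (edgeR, FDR 0.0490). Their summed level was 73.7 to 77.1 CPM against 282 to 451 and 709 to 916 CPM. Of 3 astrocyte markers, 1 was called higher over IgG RIP and 0 over input. Of 4 oligodendrocyte precursor markers and 4 endothelial markers, 0 were called over IgG RIP in either direction, while 2 of the former (*Olig1* and *Sox10*) and 1 of the latter (*Cldn5*) were lower than input. Of 4 tested microglial markers, 1 was called higher and 1 lower over IgG RIP, and 1 higher and 2 lower over input, and *P2ry12* did not pass the filter.

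The genes with the pattern most like *Elavl1* and *Ptbp3* were taken by Pearson's correlation of log2 CPM over the 9 libraries, as a description, since all points share the same libraries. For *Elavl1* they were *Mboat2* (r = 0.999), *Plcxd2* (0.999) and *Dpy19l1* (0.997). For *Ptbp3* they were *Grn* (0.997), *Sod2* (0.996) and *Cnr1* (0.996).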

How the data were processed

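RIP-seq libraries from 3 groups of 3 were analysed. Per the labels and the study's methods, rRNA was depleted, libraries were directional, reads were trimmed with fastp 0.23.4, rRNA reads were removed with Ribodetector 0.3.1, and transcripts were quantified with kallisto 0.51.1. The authors deposited the estimated counts per transcript, not normalized for depth or length. The methods name Ensembl as the source of the transcriptome, while the table carries RefSeq accessions, and the labels name mm10. All sample columns were used (0 left out).

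Transcripts were matched to genes by accession without version in a RefSeq table of GRCm38.p6 (mm10). Of 107384 transcripts, 80.8% matched and 20662 did not and were left out. The counts of a gene's transcripts were added and the sums rounded. Protein-coding genes that reached 0.5 CPM in 3 or more of the 9 libraries were fitted with edgeR 4.0.16 (R 4.3.3, limma 3.58.1), TMM scaling, a mean per group and the quasi-likelihood test. FDR is Benjamini-Hochberg over all tested genes, and SE is the absolute log2 fold change divided by the root of F. Transcripts were tested in the same way, and against the rest of their gene with diffSpliceDGE. Log2 ratios used counts plus 0.5. DESeq2 1.42.0 was an alternative, with other scalings, filters, transcript choices and left-out libraries. Figures used Python 3.11.15, pandas 2.3.3 and matplotlib 3.10.9.

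The members and gene lists were chosen with earlier results of these data known. Named transcripts hold at least 10% of their gene in a group or were called. From each list, up to 2 genes called higher and 2 called lower than IgG RIP with the largest changes are named, and for each member called in both comparisons the 3 genes with the highest r. A result of the FMRP cargo list is not reported here.

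Replicates of a group differed by more than sampling error (chi-square per gene 11.8 to 43.0). Deviations from the group mean, over 11534 genes, correlated between same-numbered CELF2 RIP and input libraries at 0.185, 0.122 and 0.213. The correlation between libraries of different numbers was not computed, so whether the numbers pair these groups was not tested. The main fits used no pairing. For same-numbered CELF2 RIP and IgG RIP libraries the correlations were -0.070, 0.038 and -0.011, and for IgG RIP with input 0.087, 0.064 and 0.0079. The labels call the replicates biological. Molecular identifiers are not given in the sources used here.

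The steps were tested on simulated data for CELF2 RIP against IgG RIP. Over 15267 genes, the step called 14 of 100 genes at a true rise of 2-fold, 70 at 3-fold and 89 at 4-fold, and at most 1 unchanged gene. Each simulation raised 100 and lowered 100 genes or transcripts, all of them well counted. In the data, 22.9% of genes were higher and 19.2% lower over IgG RIP at an FDR under 0.01. The simulated rates thus describe a setting with fewer changes than these data.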

Additional observations from a re-analysis of the deposited data

How the results depend on the processing

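Members called higher than IgG RIP numbered 4, and 2 over input and over both controls. Over IgG RIP the number was 1 with total counts, the upper quartile or a test against 2-fold (glmTreat), and 2 with TMM over coding and noncoding genes or curated transcripts. Over input and over both it was 0 with total counts, the upper quartile, TMM over coding and noncoding genes, glmTreat or version-matched transcripts, and 1 with DESeq2 size factors, the DESeq2 Wald test, no filter or curated transcripts. Leaving out single libraries gave 2 to 5 over IgG RIP, 0 to 3 over input and 0 to 2 over both. The fits without CELF2 RIP replicate 2 (0 over input) and without input replicate 2 (2 over IgG RIP, 1 over input) moved these most. Version-matched transcripts gave 1 member lower in IgG RIP than in input.

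Alternatives for the counts without the 2-fold limit, for the separation of libraries and for the similar patterns were chosen after seeing the data. The 8 members higher than IgG RIP became 5 with total counts, the upper quartile or TMM over coding and noncoding genes and 4 with curated transcripts. The 4 over input became 2 with total counts, curated or version-matched transcripts. With total counts or the upper quartile 1 member was lower than IgG RIP. The 3 lower in IgG RIP than in input became 0 with curated transcripts or the replicate block and 1 with version-matched transcripts. Without single libraries these numbers were 6 to 8, 4 to 5, 0 to 1 and 0 to 3, and 0 to 1 members were higher in IgG RIP than in input. The 6 members above all controls became 3 with total counts and 2 with curated or version-matched transcripts, and 5 to 7 without single libraries. The 4 separated ratios became 1 with curated or version-matched transcripts, and 4 to 6 without single libraries. Transcripts that differ from their gene over IgG RIP numbered 0 to 1 without single libraries, the 1 arising without IgG RIP replicate 3. Other than the values given here and beside the results, the replicate block changed no number of members called.

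Directions turned for small changes over input. *Ptbp1* was -0.36, -0.034, -0.13 and -0.28 and *Fxr1* -0.39, -0.069, -0.17 and -0.32 with total counts, DESeq2 size factors, the upper quartile and TMM over coding and noncoding genes. The DESeq2 Wald test gave -0.034 and -0.069, and no filter -0.013 and -0.048. Without single libraries *Ptbp1* ranged from -0.012 to 0.12 and *Fxr1* from -0.024 to 0.14, below 0 without input replicate 2. *Elavl3* and *Elavl4* were -0.15 and -0.19 with total counts and -0.076 and -0.12 with TMM over coding and noncoding genes. *Fxr2* ranged from -0.18 to 0.14, above 0 without CELF2 RIP replicate 2 (0.14) or input replicate 3 (0.031). With curated and with version-matched transcripts, *Fmr1* was -0.81 and -0.79 over IgG RIP, -0.064 and -0.11 over input and 0.75 and 0.68 for IgG RIP against input, and *Elavl2* was -0.043 and -2.28 for IgG RIP against input. The same choices gave *Top3b* 4.27 and 4.29 over IgG RIP, *Fmr1* to *Fxr1* -0.90 and -0.53 and *Fmr1* to *Fxr2* -0.42 and -0.42 against input. Version-matched transcripts gave *Elavl2* to *Elavl3* -0.35 and *Elavl2* to *Elavl4* -0.39 against input. The cause was not tested, beyond the fact that the last 2 choices sum fewer transcripts. For transcripts, 31 of 100 rises and 4 of 100 falls of 8-fold were called in simulated data of the same depth. With the dispersion divided by 10 these numbers were 85 and 62. The transcripts changed there were all well counted, so these rates do not cover sparser ones.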
